A study of Mus musculus with 16 samples.

Results

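The liver transcriptome of mice on regular chow, the unmanipulated reference state of a diet study, was described from its 4 arrays, 1 per mouse. These are 4 of the 16 arrays of the series, chosen by their titles, and the transcripts described are those whose probes had a detection p-value under 0.01 on all 4 chow arrays. Of the 25697 probes in the signal table, 8968 (34.9%) met that rule, and 5679 of them carry a gene symbol. After 1 probe had been kept per gene, 5618 genes remained for the comparisons between mice, of 6559 genes tested over the whole series.

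In the study, RNA from livers of female C57BL/6J mice was hybridised to Illumina MouseRef-8 bead arrays, which report the brightness of 1 labelled sample per array. Chip A held the 4 chow mice and 4 mice on a high-fat diet (HFD), and chip B held repeat arrays of the same 4 HFD mice beside 4 HFD mice injected intraperitoneally with nicotinamide mononucleotide (NMN), a precursor of NAD, for 7 days. No genetic alteration is stated for any group, and the ages of the mice and the hour at which livers were taken are not stated in any source used here. Chow lies on chip A only, so no chow array could be set against a second array of its own mouse.

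The liver is made up mostly of hepatocytes, which secrete most proteins of blood plasma, clear nitrogen through the urea cycle, convert cholesterol to bile acids and break down drugs with cytochrome P450 enzymes. Hepatocytes near the portal vein and those near the central vein carry out different parts of this work. Around them lie endothelial cells of the sinusoids, resident macrophages called Kupffer cells, stellate cells and blood. Many liver genes follow the time of day and the last meal, so even untreated mice of 1 strain can differ in them. In bulk tissue, fewer cells of a type and less RNA per cell cannot be told apart.

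Signal is given as deposited, in linear arbitrary units that had been scaled to the same mean of 202 on each array. Between 9521 and 10048 probes were detected per chow array. The median signal of the undetected probes lay between 31.4 and 34.9 on the 4 arrays. At the edge of the rule, the lowest mean signal of a probe detected on all 4 arrays was 43.1, and the brightest probe detected on none had 42.2. The 510 probes detected on exactly 3 arrays had a median mean signal of 44.8, against 125 for those detected on all 4. The rule therefore separated probes by brightness, and a gene outside it is not shown to be silent. With 1 array for each of 4 mice, precision is set by the number of mice.

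The brightest named probe was that of Apoc3, an apolipoprotein that inhibits triglyceride clearance, with 24058, 24246, 24142 and 20204 on chow mice 1 to 4. Next came Gpx1, a glutathione peroxidase, with 21407, 24044, 23408 and 20651. The third was Ahsg, the plasma glycoprotein fetuin-A, with 21078, 21097, 20159 and 18197. Mouse 4 was the lowest for all 3 genes, and its brightest probe of any kind reached 20651 where the others reached 24058 to 24246. The 11 brightest named genes were, in order, Apoc3, Gpx1, Ahsg, Trf, Serpina1b, Dbi, Apoa2, Serpina1d, Ambp, Hpx and Apoa1. All but Gpx1 and Dbi, a binding protein for acyl-CoA, encode proteins secreted into plasma.

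Ranks 12 to 30 held the iron store Fth1, the ATP synthase subunits Atp5b and Atp5g3, the ethanol-metabolising enzymes Adh1, Aldh2 and Cyp2e1, the thyroid hormone carrier Ttr, the fibrinogen chain Fga, the peroxisomal thiolase Acaa1b, the methionine adenosyltransferase Mat1a, the tyrosine-breakdown enzyme Fah, the bile acid enzyme Hsd3b7, the metallothionein Mt1, and Apoc1, Serpinf1, Serpina1c, Tmbim6, Itm2b and Hamp2. Cyp2e1, rank 16, read 14230, 13387, 13859 and 14164. Ttr, rank 17, read 14380, 12862, 14075 and 13565. The Serpina1 genes are close copies of each other, so their probes may share RNA.

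A rank here orders probes, not amounts of RNA, because probes differ in how well they bind. Among 61 genes with more than 1 probe detected on all chow arrays, the mean signals of probes for the same gene spanned a median of 0.77 on the log2 scale and at most 4.27, and 28 of the 61 genes (45.9%) spanned more than 1. Alb, the albumin gene and one of the 2 markers given for the tissue, had a dim probe. It read 81.0, 67.3, 71.8 and 73.4, which put Alb at rank 4037 of 5618, and lay between 57.4 and 102 on all 16 arrays of the series. Alb has no second detected probe to set beside it, and whether the probe binds poorly or is wrongly annotated was not tested. The other marker, Apoa1, the main protein of high-density lipoprotein, read 16778, 16008, 16180 and 15218, at rank 11. The plot of signal against rank places both markers.

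**Figure D1:**
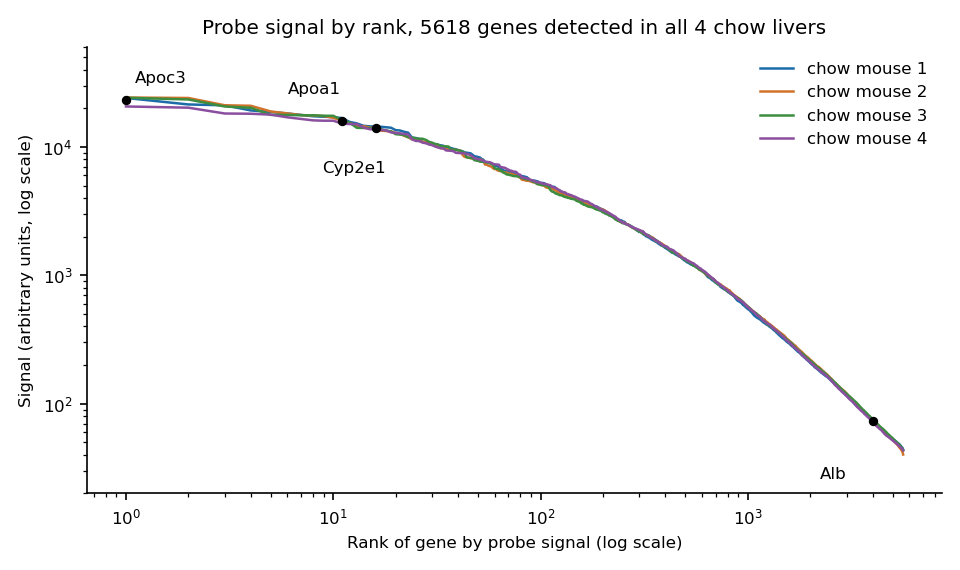
Signal of 5618 genes detected in all 4 chow livers (vertical axis, arbitrary units, log scale) against the rank of the gene on that array (horizontal axis, log scale), with 1 line per mouse. The lines lie on top of each other except at the brightest genes, where mouse 4 is lower, and black points mark the mean signal of Apoc3, Apoa1, Cyp2e1 and Alb at ranks 1, 11, 16 and 4037.

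Hepatocyte markers other than Alb were bright. Of 13 hepatocyte markers with a named probe, 11 were detected on all 4 chow arrays and 8 were among the 100 brightest genes. Fgb and Tat were undetected on every chow array, although Fga was at rank 28. The hepatocyte markers held between 2.29% and 2.53% of all signal. No member detected on all chow arrays was found for B and plasma cells (of 7 markers with a named probe), T and NK cells (12), cholangiocytes (5), adipocytes (8), muscle (10) or gallbladder and intestine (6). Of the neutrophil markers 1 of 12, S100a8, was detected on all 4 arrays, with 51.0, 65.1, 104 and 49.0. Of the acinar pancreas markers 2 of 10 were, Cela1 and Cela2a, while Cpa1, Cpb1, Clps and Ctrb1 were undetected on every chow array.

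The signal was concentrated in few probes, and by nearly the same share in each mouse. The 10 brightest probes held 3.84%, 3.99%, 3.90% and 3.52% of all signal in mice 1 to 4, a mean of 3.81% ± 0.203 (SD, n = 4). The 100 brightest held 21.6% ± 0.292, with mouse 4 again the lowest at 21.2%. The 500 brightest held 47.9% ± 0.232, and between 553 and 567 probes held 50% of the signal of an array. The detected probes of an array together held 89.1% to 90.3%. Some of this signal is unspecific, since no background had been subtracted.

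These shares did not differ detectably from those of the 4 HFD arrays on the same chip. The 10 brightest probes held 3.83% ± 0.225 (SD, n = 4) on HFD, with an exact two-sided permutation p of 0.771. The difference was largest for the 1000 brightest, at 60.8% ± 0.254 on chow and 59.8% ± 1.31 on HFD, with an exact p of 0.229. Adjusted over the 5 shares compared by Benjamini and Hochberg, the exact permutation p-values lay between 0.714 and 0.886. The smallest p that 4 against 4 arrays allow is 0.0286. The chow arrays ranged from 60.5% to 61.1% and the HFD arrays from 58.1% to 61.0%, so the groups overlapped.

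The order of the probes was close to the same in every mouse. Spearman's correlation over the 8968 detected probes lay between 0.980 and 0.986 for the 6 pairs of chow arrays, a description across probes of arrays that share a platform and a chip. Of the 10 brightest probes by mean signal 8 were among the 10 brightest on every array, as were 40 of the 50 brightest, 85 of the 100 brightest and 455 of the 500 brightest. Among the 500 brightest, 158 (31.6%) have no gene symbol in the annotation used, so the named order above has gaps: 4 of the 10 brightest probes are unnamed.

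Lists of plasma proteins, of protein synthesis and of energy metabolism each held a few percent of the signal or less. Apolipoproteins held 1.83% to 1.99% of the signal with 6 of 13 detected members among the 100 brightest genes. Carrier proteins of plasma held 2.15% to 2.31% and protease inhibitors 1.55% to 1.64%. Cytosolic ribosomal proteins held 1.94% to 2.09% over 54 members with a named probe. The respiratory chain and ATP synthase held 1.98% to 2.17% over 48 such members. Cytochromes P450 held 1.76% to 1.89% over 40, and the urea cycle and amino acid breakdown held 1.76% to 1.84% over 33. Shares and summed signals of lists take in every member with a named probe, detected or not. These shares follow the number of probes in a list as well as their brightness.

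The 4 chow mice differed from each other by more than repeat arrays of 1 mouse did. On the log2 scale, after background correction and normalization with neqc, the median SD over the 4 chow mice was 0.14 per gene, with quartiles of 0.09 and 0.19. It was 0.14 for the 4 HFD mice on chip A, 0.14 for the same HFD mice on chip B and 0.14 for the 4 mice given NMN. For repeat arrays of the HFD mice, after the mean difference of the chips had been taken out, the median SD was 0.06. In linear signal the median coefficient of variation between chow mice was 8.09%. The plot of cumulative spread shows that the 3 groups of mice lie close together and to the right of the repeat arrays.

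**Figure D2:**
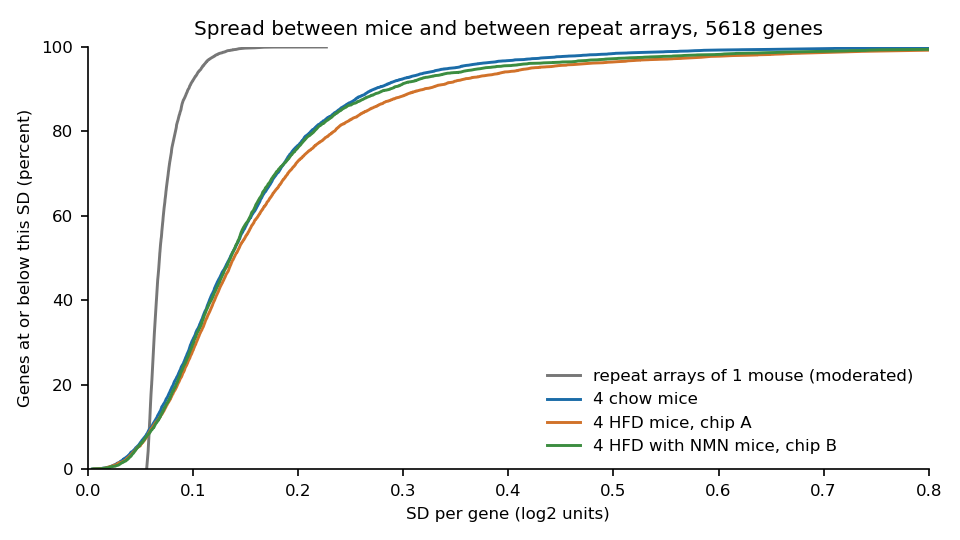
Percent of the 5618 genes (vertical axis) whose SD is at or below the value on the horizontal axis (log2 units), for the 4 chow mice, the 4 HFD mice on chip A, the 4 mice given NMN, and the error of repeat arrays of an HFD mouse after moderation by limma. The 3 curves for mice lie close together, and the curve for repeat arrays lies far to their left for most genes.

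A moderated F test in limma asked for each gene whether the 4 chow mice were equal, with the error taken from the repeat arrays of the HFD mice. It called 1819 of 6559 genes (27.7%) at a Benjamini-Hochberg adjusted p under 0.05, and 2930 at an unadjusted p under 0.05. Of the 5618 genes detected on all chow arrays it called 1595 (28.4%). The same test told the 4 NMN mice apart in 1866 of 6559 genes (28.4%). Without chow mouse 3 the count was 1172. The called genes had a median range of 0.53 between the highest and lowest mouse on the log2 scale, against 0.24 for the genes not called. The range exceeded 1, a doubling, in 132 genes (2.35%), and all 132 were called. Whether repeat arrays started from the same labelled RNA is not given, so the preparation of each sample may be part of a difference between mice and was not tested.

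Bright genes were more even than most. Of the 100 brightest genes, 20 (20%) differed between the chow mice, with a median SD of 0.09. The log2 values of the very brightest probes are set by the shared quantiles, so their spread is better read from the signal, where Apoc3 varied by 8.52% and Apoa1 by 4.01% (coefficient of variation, n = 4). By the SD of the log2 values, the most even of the 500 brightest were Gstk1, Atp6v1f, Eef1g, Ahsg, Lamtor4, Uqcrh, Ndufa3, Rtraf, Masp2 and Ubl5. Gstk1, a glutathione transferase, read 3742, 3823, 3787 and 3873. Lamtor4, a subunit of the lysosomal Ragulator complex, read 1735, 1732, 1733 and 1713, a coefficient of variation of 0.579%. Ahsg is one of the genes whose log2 values are set by shared quantiles, and its signal varied by 6.77%, so it is not among the most even by signal.

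Other genes differed several-fold among mice kept on the same diet. The largest spread was that of Slpi, an inhibitor of leukocyte proteases, which read 64.4, 104, 598 and 53.7 in mice 1 to 4. Mouse 3 stood far above the others, 11.1 times the lowest, and the limma F test gave a Benjamini-Hochberg adjusted p of 2.38e-06. Lcn2, an iron-scavenging protein of inflammation, read 168, 168, 227 and 886, so that here mouse 4 stood apart. The neutrophil attractant Cxcl1, with 190, 115, 191 and 515, was also highest in mouse 4. The linker histone gene H1f2 read 666, 669, 2485 and 655, with mouse 3 alone high. H1f2, Cyp26a1, which breaks down retinoic acid, and Creld2, a protein of the endoplasmic reticulum, were high in mouse 3 only and were not called without it. The plot of the 20 most variable genes shows each mouse.

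**Figure D3:**
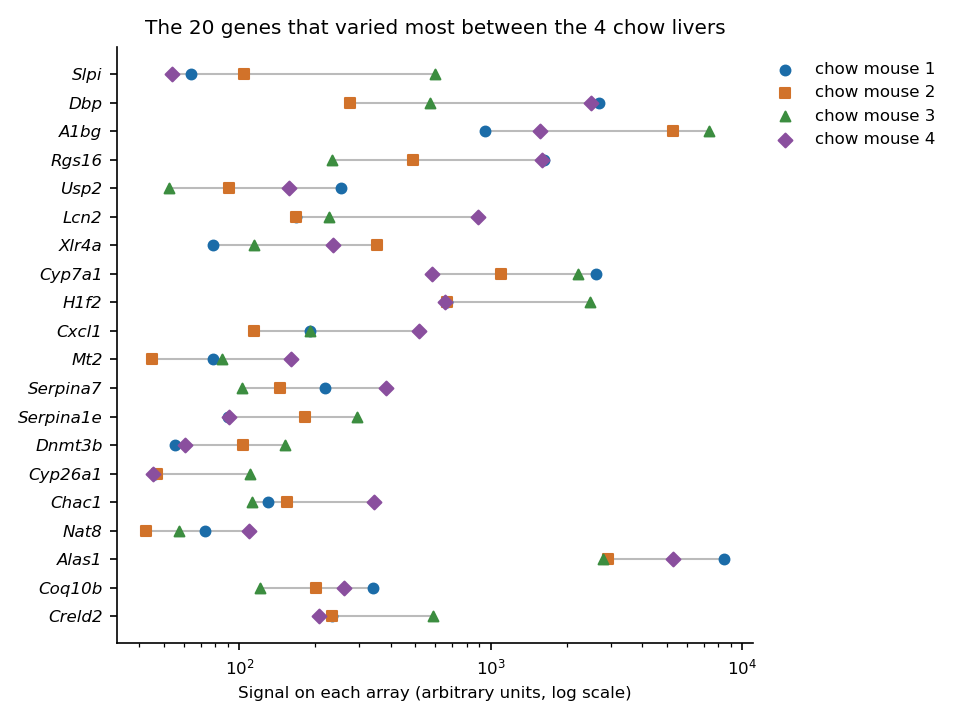
Signal on each chow array (horizontal axis, arbitrary units, log scale) for the 20 genes of largest spread among those that passed the test between mice, with 1 symbol per mouse and a grey line from the lowest to the highest. Mice 1 and 4 lie together at the high end for Dbp and Rgs16, mouse 3 lies alone for Slpi and H1f2, and mouse 4 lies alone for Lcn2.

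Several of the most variable genes are known outputs of the circadian clock. Dbp, a transcription factor driven directly by the clock, read 2694, 275, 574 and 2506. Mice 1 and 4 were high and mice 2 and 3 low, with 9.78 times between the extremes. Rgs16, a regulator of G protein signalling, read 1618, 489, 234 and 1594, with the same mice high. The deubiquitinase Usp2 read 252, 90.8, 52.5 and 157, and Tef, a close relative of Dbp, read 417, 194, 261 and 409. Nfil3, a repressor that acts on the same DNA sites as Dbp, ran the other way with 250, 629, 719 and 480. Mouse 1 was lowest there, and mice 2 and 3 highest.

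Of 12 clock and clock output genes detected on all chow arrays, 9 differed between mice in the limma F test (adjusted p under 0.05), or 75% against the 28.4% of all detected genes, and their median SD was 0.32. Nr1d1, the repressor REV-ERB alpha, read 139, 117, 110 and 175, and Bhlhe40 read 426, 345, 329 and 479, both with mice 1 and 4 above mice 2 and 3. Noct, a clock-driven phosphatase, did not share this order, with 438, 284, 643 and 303. Of the 12 list members, 4, 3, 2 and 3 were highest in mice 1, 2, 3 and 4. Of 10 clock list genes with a promoter window in the RefSeq table, 2, Per1 and Tef, hold the E-box letters CACGTG in the window listed first, against 7.24% of all 27025 windows of 300 bases. Rora, Leo1 and Csnk1d did not pass. Leo1 is counted in the list, and so in the 12 and the 10, although it is not a known clock gene.

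Metabolic genes known to change with feeding varied as well. Cyp7a1, the rate-limiting enzyme of bile acid synthesis, read 2621, 1097, 2216 and 583, and Cyp8b1, which sets the type of bile acid made, read 3596, 2495, 5965 and 2879. Alas1, the first enzyme of haem synthesis, read 8444, 2928, 2785 and 5311. The glucose-6-phosphatase gene G6pc read 3348, 4935, 3375 and 1967, and Txnip, which responds to glucose, read 795, 439, 269 and 637. No mouse was the highest for all of these. Of 11 fasting and insulin responsive genes 8 differed between mice (72.7%), and of 14 genes of glucose and glycogen metabolism 6 did (42.9%), against 28.4% of all detected genes. Pck1, the gluconeogenic enzyme most often used as a sign of fasting, read 80.5, 83.4, 68.5 and 86.9 and did not pass (adjusted p = 0.112 in limma). Its probe was dim, at rank 3809, so this does not show that the mice were alike in fasting.

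The 2 metallothionein genes, which encode small proteins that bind zinc and copper, shared their lowest and highest mouse. Mt1 read 14346, 7145, 11899 and 15051, and Mt2 read 78.2, 44.8, 85.5 and 160. Mouse 2 was lowest and mouse 4 highest in both. Mt1 was not called without mouse 2. The adjusted p in limma was 0.000759 for Mt1 and 2.56e-05 for Mt2. Their promoters are shown because metallothionein genes are known to be driven through metal response elements. The windows, from RefSeq on GRCm38.p6, run from 250 bases before to 50 after the start of the gene, at chr8:94178839-94179138 for Mt1 and chr8:94172368-94172667 for Mt2, both on the plus strand. Capitals mark the core letters TGCACNC or TGCGCNC on either strand.
Mt1: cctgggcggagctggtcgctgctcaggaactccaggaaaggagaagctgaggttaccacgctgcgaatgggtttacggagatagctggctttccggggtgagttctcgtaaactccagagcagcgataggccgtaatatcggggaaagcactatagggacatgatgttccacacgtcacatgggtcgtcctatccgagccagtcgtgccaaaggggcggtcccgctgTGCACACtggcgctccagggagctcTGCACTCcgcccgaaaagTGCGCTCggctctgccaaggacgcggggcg
Mt2: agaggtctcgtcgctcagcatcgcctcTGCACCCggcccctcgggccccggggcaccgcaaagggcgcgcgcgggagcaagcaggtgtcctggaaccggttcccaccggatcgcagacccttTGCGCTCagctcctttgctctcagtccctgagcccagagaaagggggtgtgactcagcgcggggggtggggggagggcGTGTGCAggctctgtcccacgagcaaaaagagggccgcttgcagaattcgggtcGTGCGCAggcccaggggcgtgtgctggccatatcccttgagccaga
The Mt1 window holds 3 such matches and the Mt2 window 4, and 25.6% of all 27025 windows hold at least 1. A match describes letters only.

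Gene groups differed in how often their members varied, as the plot of calls by list shows. Of all 5618 detected genes 28.4% were called. None of 11 hepatocyte markers differed between the mice in the limma F test, nor did most genes of protein synthesis and respiration. The hepatocyte markers had a median rank of 17, and log2 values of the brightest probes are set by shared quantiles. Their count therefore says little about how even they were. In deposited units the summed signal of the 13 hepatocyte markers with a named probe was 131100, 131300, 130700 and 118700 in mice 1 to 4. Of 41 ribosomal protein genes 4 were called (9.76%), namely Rpl12, Rpl34, Rpl38 and Rps27. Of 41 genes of the respiratory chain and ATP synthase 4 were called (9.76%), namely Ndufb5, Ndufb10, Uqcrc1 and Atp5j. Coagulation factors had 2 calls of 15 (13.3%), Fga and F11. At the other end stood sinusoidal endothelial markers with 10 of 11 (90.9%), immediate early genes with 8 of 9 (88.9%) and interferon stimulated genes with 16 of 19 (84.2%). Acute phase proteins had 12 calls of 15 and fatty acid and triglyceride synthesis 12 of 15 (80% each).

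**Figure D4:**
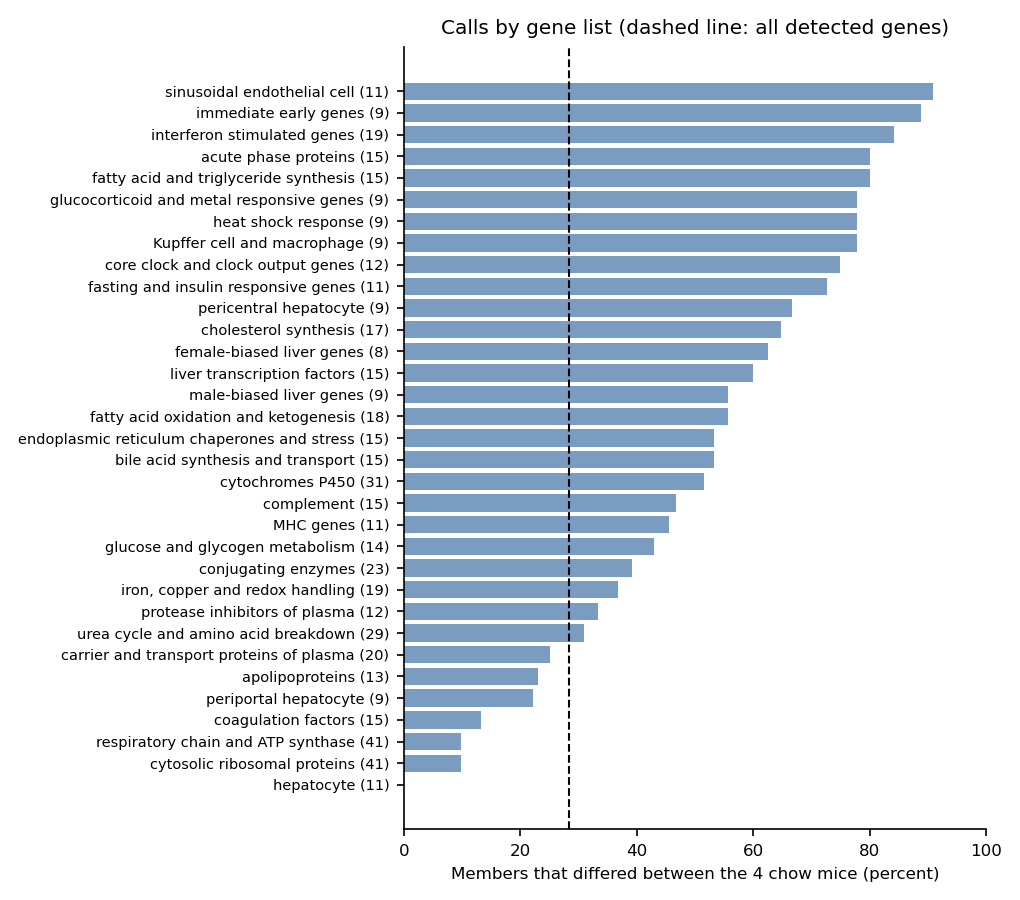
Percent of the members detected on all 4 chow arrays that differed between the chow mice in the limma F test (horizontal axis, adjusted p under 0.05), for each list with 8 or more such members, whose number is in brackets. The dashed line marks the 28.4% of all 5618 genes, and hepatocyte markers are at 0 while sinusoidal endothelial markers reach 90.9%. The brightest genes, many hepatocyte markers among them, have log2 values set by shared quantiles.

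Within several lists the same mouse stood at the top for most members. Over all 5618 genes, mouse 1 was the highest for 26.9%, mouse 2 for 24.7%, mouse 3 for 25.6% and mouse 4 for 22.7%, and the lowest for 26.2%, 23.2%, 27.1% and 23.5%. The lists are read against these shares, with no test of a list, and the members of a list are not independent of each other. List members named above and below beyond the brightest and most variable were chosen after their values were seen.

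Markers of sinusoidal endothelium were highest in mouse 2 for 11 of 11 members. Clec4g, a lectin of these cells, read 2008, 2948, 2589 and 2209. The water channel Aqp1 read 1196, 1514, 1148 and 1087. The Fc receptor Fcgr2b read 164, 257, 216 and 169, and Ehd3 read 187, 288, 211 and 180. The hyaluronan scavenger receptor Stab2 read 125, 170, 166 and 124, while its relative Stab1 read 63.9, 89.3, 78.3 and 76.9. The other members, Pecam1, Eng, Cdh5, Dnase1l3 and Gpr182, were also highest in mouse 2. Gpr182 alone did not pass (adjusted p = 0.0505 in limma). Aqp1 and Ehd3 were not called without mouse 2, while Clec4g and Fcgr2b were. Summed over the list, the signal was 4353 in mouse 1, 6030 in mouse 2, 5086 in mouse 3 and 4409 in mouse 4. In the HFD arrays of chip A the sum ranged from 5052 to 5726, within the chow range. Kdr and Oit3 of the same list were undetected on every chow array.

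Mouse 2 was also lowest in all 3 erythroid genes detected. The haemoglobin gene Hba-a1 read 8960, 3997, 11590 and 8153. Hbb-bt read 166, 71.8, 155 and 127, and Alas2, which starts haem synthesis in red cell precursors, read 229, 120, 192 and 224. All 3 differed between mice in the limma F test, with adjusted p-values of 0.000136 for Hba-a1, 0.000329 for Hbb-bt and 0.00104 for Alas2. Alas2 was not called without mouse 2, while Hba-a1 and Hbb-bt were. The summed erythroid signal, over 6 markers with a named probe, was 4285 in mouse 2 and 8606 to 12050 in the others. Its part in the endothelial difference was not tested. Periportal markers, the genes of hepatocytes near the portal vein, were highest in mouse 2 for 6 of 9, but only Cdh1 and Etnppl of these passed. Neither was called without mouse 2. The ureagenesis genes Ass1 and Cps1 read 7494, 8009, 7599 and 6984, and 6261, 7016, 6760 and 6420, and did not pass.

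Markers of Kupffer cells and macrophages were highest in mouse 3 for 6 of 9 members and lowest in mouse 4 for 8 of 9. Of the 9 members 7 were called (77.8%), against 28.4% of all detected genes. Vsig4, a complement receptor of Kupffer cells, read 579, 687, 1100 and 493. Lysozyme, Lyz2, read 311, 257, 479 and 224. The complement C1q chains ran in parallel, with C1qb at 269, 260, 396 and 223 and C1qc at 222, 203, 324 and 177. The Kupffer cell lectin Clec4f read 391, 397, 569 and 337. Clec4f and C1qb were not called without mouse 3. The summed signal of the list was 2232, 2197, 3324 and 1839 in mice 1 to 4, and 3466 to 6823 in the HFD mice of chip A, all above the chow mice. Cd163 and Cd5l were undetected on every chow array, and Cd14 and Ctss did not pass. Of 11 MHC genes 5 were called. Of the 11, 6 were highest in mouse 3, 4 in mouse 1 and 1 in mouse 4, and 7 were lowest in mouse 4. The antigen presentation genes Cd74 and H2-Ab1 were highest in mouse 3 and lowest in mouse 4. Cd74 read 268, 234, 385 and 165, and H2-Ab1 read 414, 331, 461 and 216.

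Interferon stimulated genes were highest in mouse 3 for 15 of 19 members and lowest in mouse 4 for 11. The antiviral enzyme Rsad2 read 119, 149, 266 and 99.2, a limma adjusted p of 0.000156. Isg15, a ubiquitin-like modifier, read 114, 110, 201 and 112. Ifit3 read 51.2, 53.3, 81.1 and 50.7, close to the detection limit. The GTPase gene Igtp read 532, 411, 728 and 401. Bst2, or tetherin, did not share the order and was highest in mouse 2, with 401, 559, 371 and 214. Ddx58, Psmb8 and Tap1 did not pass. The signal of Kupffer cell markers moved with these genes between mice, and its part in them was not tested.

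The promoters of Rsad2, Isg15 and Ifit3 are shown because such genes are known to be driven through interferon response elements. The windows, from RefSeq on GRCm38.p6, are chr12:26456403-26456702 on the minus strand for Rsad2, chr4:156200769-156201068 on the minus strand for Isg15 and chr19:34583279-34583578 on the plus strand for Ifit3. Capitals mark the core letters GAAANNGAA on either strand, which can overlap each other.
Rsad2: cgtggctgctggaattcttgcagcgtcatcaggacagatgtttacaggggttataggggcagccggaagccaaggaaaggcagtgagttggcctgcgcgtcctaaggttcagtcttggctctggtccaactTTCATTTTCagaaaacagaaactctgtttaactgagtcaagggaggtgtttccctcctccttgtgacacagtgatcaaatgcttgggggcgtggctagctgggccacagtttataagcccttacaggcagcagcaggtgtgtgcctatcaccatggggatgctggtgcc
Isg15: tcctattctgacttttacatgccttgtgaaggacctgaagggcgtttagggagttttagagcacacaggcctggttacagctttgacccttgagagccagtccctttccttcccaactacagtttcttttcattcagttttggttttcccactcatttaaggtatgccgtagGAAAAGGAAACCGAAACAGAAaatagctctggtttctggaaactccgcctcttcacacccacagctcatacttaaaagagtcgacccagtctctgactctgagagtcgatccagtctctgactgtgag
Ifit3: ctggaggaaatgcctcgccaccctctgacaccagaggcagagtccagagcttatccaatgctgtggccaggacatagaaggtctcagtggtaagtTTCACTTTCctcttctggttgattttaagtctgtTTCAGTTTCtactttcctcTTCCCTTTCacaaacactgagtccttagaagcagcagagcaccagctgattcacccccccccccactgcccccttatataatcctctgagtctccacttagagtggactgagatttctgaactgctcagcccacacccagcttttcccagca
The core occurs once in the Rsad2 window and in 3 places in each of the windows of Isg15 and Ifit3. Of the 19 listed genes 17 had a window, and 11 of the 17 (64.7%) hold the core, against 8.57% of all 27025 windows. The list was made of known interferon targets, so this share describes the list and not the mice.

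Acute phase proteins, which hepatocytes secrete in inflammation, were highest in mouse 4 for 10 of 15 members and lowest in mouse 1 for 10 of 15. Haptoglobin, Hp, read 5333, 6514, 7648 and 8419. Orm1, which encodes a glycoprotein that binds drugs, read 7058, 8368, 8312 and 9321. The protease inhibitor Serpina3n read 3029, 3104, 3422 and 4873. Hamp, the iron hormone hepcidin, was low in mouse 1 alone, with 2280, 5004, 5118 and 5037. Crp, with 6295, 6036, 6513 and 6397, did not pass (limma adjusted p = 0.608). Mouse 4 was thus highest in the acute phase list and lowest in the Kupffer cell and interferon lists. Hp, Orm1 and Hamp were not called without mouse 1, nor was Serpina3n without mouse 4.

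Most genes of cholesterol synthesis were highest in mouse 1. Of 17 genes of cholesterol synthesis 11 differed between mice (64.7%, against 28.4% of all detected genes) and 11 were highest in mouse 1. Hmgcs1, which makes the precursor of mevalonate, read 11733, 9353, 8223 and 7296. Fdps read 3687, 2791, 2997 and 2792, and Msmo1 read 1814, 1204, 1479 and 1374. Insig1, a sterol-dependent brake on this pathway, ran the other way with 372, 482, 657 and 579. Hmgcs1, Fdps and Hsd17b7 were not called without mouse 1. Among genes of fatty acid and triglyceride synthesis 8 of 15 were highest in mouse 1, and Thrsp, a lipogenic regulator, read 1254, 666, 566 and 952. Scd1, the stearoyl-CoA desaturase, was instead low in mouse 4 alone, with 5803, 5522, 5629 and 4423, and was not called without it.

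Genes of fatty acid oxidation were also mostly highest in mouse 1, for 11 of 18, and lowest in mouse 3 for 10. Of the 18 genes 10 were called (55.6%), against 28.4% of all detected genes. Cyp4a14, a target of the fatty acid receptor PPAR alpha, read 4684, 3263, 2068 and 3533. Acot3, an acyl-CoA thioesterase, read 1667, 728, 986 and 794, and Acaa1a read 6205, 4074, 3896 and 5790. Heat shock genes were highest in mouse 1 for 7 of 9, with 7 of 9 called. The chaperone genes Hspa8 and Hsph1 read 6434, 4848, 5347 and 4732, and 389, 233, 311 and 171. Hspd1, the mitochondrial chaperone, was instead lowest in mouse 1. Pericentral markers, the genes of hepatocytes near the central vein, were highest in mouse 1 for 6 of 9, with 6 of 9 called. Among them Cyp1a2 read 2717, 1621, 1534 and 1876, while Cyp2e1 of the same zone did not pass (limma adjusted p = 0.722). Without mouse 1, Cyp1a2 was not called, nor were Hspa8, Hspd1, Dnajb1 and Chordc1 of the heat shock list, while Hsph1 was. The plot of gene groups by mouse sets these patterns side by side.

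**Figure D5:**
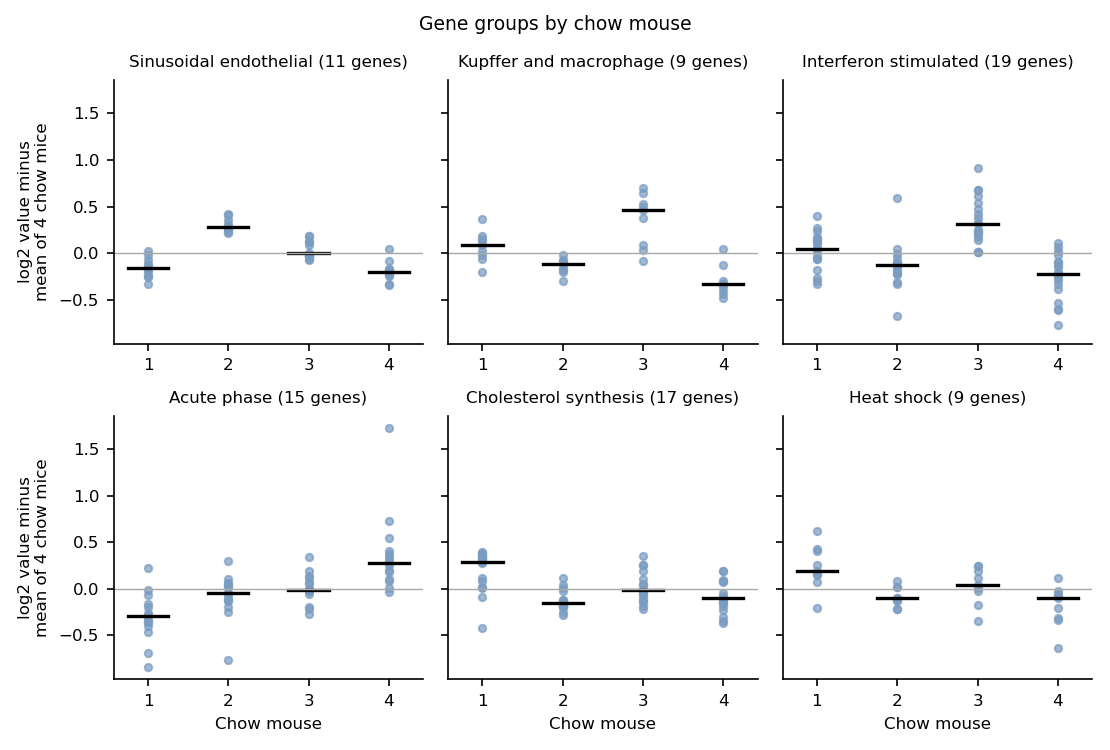
Log2 value minus the mean of the 4 chow mice (vertical axis) for each detected member of 6 gene lists, by chow mouse (horizontal axis), where each point is a gene and each black bar the median of the list. The bar is highest in mouse 2 for sinusoidal endothelium, in mouse 3 for Kupffer cells and interferon stimulated genes, in mouse 4 for acute phase proteins, and in mouse 1 for cholesterol synthesis and heat shock.

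Genes with known differences between the sexes were among those that varied, although all mice were female. A1bg, a secreted immunoglobulin-like protein expressed more in female mouse liver, read 943, 5278, 7362 and 1566, so that mice 2 and 3 were high, up to 7.81 times the lowest mouse. The limma F test gave A1bg an adjusted p of 6.84e-06. Cyp2b13, another female-biased gene, read 5085, 2050, 3436 and 4777, in nearly the opposite order. Cyp2b9 read 3827, 4202, 4113 and 4432 and did not pass. Of the female-biased genes 5 of 8 and of the male-biased genes 5 of 9 differed between mice, against 28.4% of all detected genes. Serpina1e, a male-biased gene, read 89.8, 183, 292 and 91.1, with mice 2 and 3 high as for A1bg. It is a close copy of its Serpina1 relatives and its probe may share their RNA.

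The genes that varied most among chow mice were also followed in the other groups. For the 100 genes of largest spread in chow, chosen on that spread, the median SD was 0.58 in chow, 0.41 among the HFD mice of chip A and 0.36 among the mice given NMN. Of these 100 genes 83 also differed among the NMN mice in the same F test (adjusted p under 0.05 in limma), against 28.4% of all genes tested. Both F tests take their error from the same repeat arrays, so the 2 sets of calls are not independent. Across the 5618 genes the SD in chow correlated with that in the NMN mice at a Spearman value of 0.292 and with that in the HFD mice of chip A at 0.349, as a description over genes that share the arrays' noise. Among the 1595 called genes the mouse farthest from the mean was mouse 3 for 507, mouse 1 for 418, mouse 4 for 356 and mouse 2 for 314.

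Diet calls were about as frequent among the brightest chow genes as over all genes. In a limma fit of all 16 arrays, 452 of 6559 genes (6.89%) differed between HFD and chow on chip A at a Benjamini-Hochberg adjusted p under 0.05, of which 207 (3.16%) were higher and 245 (3.74%) lower on HFD. Among the 100 brightest chow genes 6 differed, which is near the share over all genes, with 2 higher and 4 lower. The median log2 change of the 100 was -0.04, against -0.01 over all genes tested. Among the 100 genes most variable in chow 11 passed. In this fit the HFD mice of the 2 chips count as separate arrays.

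Sult1a1, a sulfotransferase of phenols, read 5475, 5335, 5922 and 5216 on chow and 4006, 4067, 3710 and 4137 on HFD. The groups did not overlap, and the log2 change was -0.44 ± 0.10 (SE, n = 4 per group, limma adjusted p = 0.0161). Sult1a1 passed in every refit, and the other 5 genes were lost in at least 1. Hmgcs1 read 11733, 9353, 8223 and 7296 on chow and 3041, 5713, 5523 and 4452 on HFD, a log2 change of -0.94 ± 0.25 (SE, limma adjusted p = 0.0331). Without chow mouse 1, the highest, its adjusted p was 0.0964 in the same limma fit. Cps1, the entry enzyme of the urea cycle, read 6261, 7016, 6760 and 6420 on chow and 3138, 3918, 4073 and 4947 on HFD, with no overlap. Its log2 change was -0.68 ± 0.19 (SE, limma adjusted p = 0.0418). Leaving out any 1 chow mouse raised the limma adjusted p of Cps1 to between 0.0717 and 0.0924.

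Hpx, which carries free haem in plasma, was the brightest gene called higher on HFD. It read 14453, 16867, 17619 and 16500 on chow and 23117, 20426, 19573 and 19648 on HFD. Its log2 change was 0.30 ± 0.07 (SE, limma adjusted p = 0.0248). With the 8 arrays of chip A alone, where each HFD mouse counts once, the limma adjusted p was 0.0741 for Hpx, 0.0992 for Acaa1b and 0.0938 for Ahsg, so these 3 calls were lost. Acaa1b read 15652, 13191, 12469 and 12638 on chow and 16775, 14278, 17821 and 17622 on HFD, so the groups overlapped, with a log2 change of 0.27 ± 0.08 (SE, limma adjusted p = 0.0443). Ahsg fell by 0.22 on the log2 scale (SE 0.06, limma adjusted p = 0.0442). Its HFD values of 17945, 15700, 16827 and 18319 overlapped with chow mouse 4 at 18197. On the log2 deposited signal, with no quantile step, the limma adjusted p of Ahsg was 0.0673, so the call was lost there too. Apoc3, Gpx1, Trf and Apoa1 did not pass, with log2 changes of -0.06, -0.03, 0.04 and 0.05. Since log2 values of the very brightest probes are set by shared quantiles, these small changes say little about diet.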

How the data were processed

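The members, gene lists, tests and motifs were chosen with earlier results of these data known. The authors deposited an intensity per probe and array that they had scaled to a common mean without background subtraction, and a detection p-value beside each, per the file headers; no source used here states how they were computed. A second deposited table by the authors holds a z score per probe and array, used as an alternative for the spread only. Ranks and shares use the deposited intensity. For tests, intensities of all 16 arrays went through neqc of limma 3.58.1 in R 4.3.3 (offset 16). A probe had to be detected at p under 0.01 on at least 4 arrays, and the probe of highest mean was kept per gene, which left out 3914 unnamed probes.

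The test between mice fitted 12 mice and the chip, with 3 residual degrees of freedom from the repeat arrays and 5.01 prior degrees of freedom. In the deposited column names each HFD animal appears on both chips, and the paired deviations correlated at 0.765 to 0.892. The diet fit had 4 groups. Chow and HFD arrays of the same number gave correlations of -0.007, 0.072, 0.237 and 0.234 and were not paired. Fits were tested on simulated data. Genes chosen for naming were the 30 brightest, the 20 most variable among those called and the 10 most even of the 500 brightest. To these came up to 4 bright and 2 variable members of each of 45 lists, the diet calls among the 100 brightest, and 16 fixed genes. Not all of them are named in the text, and of the fixed genes Saa1, Hbb-b1, Xist, Mup20 and Sqle are not. Symbols came from the platform annotation (65.6% of probes), and 11 named probes had no match in GRCm38.p6. Python 3.11.15, scipy 1.17.1, numpy 2.4.6 and pandas 2.3.3 were used.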

Additional observations from a re-analysis of the deposited data

Results flagged for a closer look

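Of 213 sets of 4 chow values, 16 had 1 mouse whose gap to the nearest other was a larger part of the whole range than Dixon's 95% limit for 4 values allows. Chance alone flags about 1 set in 20.

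For the highest signal of an array the ratio was 0.948, with mouse 4 lowest. The ratio was 1 for Apoc3, Gpx1, Ahsg and Ambp, whose normalized values take shared quantiles, so that 3 mice have the same value. Mouse 3 was highest for H1f2 at 0.977, for Cyp26a1 at 0.902 and for Creld2 at 0.871. Mouse 1 was lowest for Hamp at 0.889. Mouse 4 was lowest for Scd1 at 0.938, Acly at 0.843, Foxa3 at 0.851 and Ccnd1 at 0.839. Ccnd1, a cyclin of the G1 phase, read 963, 1139, 1087 and 486, and Foxa3, a liver transcription factor, read 1328, 1460, 1360 and 934. Mouse 2 was lowest for Slc27a5 at 0.845 and highest for Gstp1 at 0.835, and mouse 3 was lowest for P4hb at 0.871. Slc27a5, P4hb and Gstp1 did not differ between mice in the limma F test.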

How the results depend on the processing

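The share of signal in the 10 brightest probes, 3.81% as given, was 4.29% over detected probes only, 4.54% after background subtraction and 5.52% over named probes with 1 per gene; for the 100 brightest it was 24.4%, 25.7% and 27.4%. The comparison of these shares with HFD passed the threshold in no alternative run, although the runs of 3 against 4 arrays cannot go below an exact p of 0.0571. With the replicate block, as sign flips of same-numbered pairs, the differences of -0.0247 and -0.0371 percentage points had an exact permutation p of 1, a test that cannot pass with 4 pairs. The median SD between chow mice, 0.135, was 0.116 on the log2 signal, 0.11 after quantile normalization alone, 0.0715 with no filter on detection and 0.116 from the z scores, and 0.123 to 0.13 with 1 mouse left out. The count of genes that differ between mice, 1819, was 1172 to 1802 with 1 mouse left out, 2493 after quantile normalization alone, 2632 with a trend and 1396 with no filter. Of the 120 genes chosen for naming that were called between mice, 62 were called in each of the 14 other fits, as were 17 of the 20 most variable. The count of diet calls among the 100 brightest genes, 6, was 3 with chip A alone, 3 with the replicate block on chip A, and 2 to 5 with 1 array left out. These counts need not hold the same genes: the replicate block lost Hmgcs1, Hpx, Acaa1b and Ahsg of the 6. The 500 brightest held 43. On the log2 signal, chosen after seeing the data, 69 of 72 counts of list members highest or lowest in a mouse were within 1.5 times. The exceptions were apolipoproteins highest in mouse 1 (7 and 4), fasting and insulin responsive genes highest in mouse 1 (5 and 3) and coagulation factors highest in mouse 2 (4 and 7). The cause of these shifts was not tested. Dim genes near the detection limit and the shared quantile values of the brightest limit the spread at both ends, and 4 mice on 1 chip limit all else.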

Other observations

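Single genes of groups that the text above has not described also differed between the chow mice. Immediate early genes, which respond within minutes to stimulation, had no common order. Egr1, a transcription factor of this kind, read 388, 562, 350 and 234, and Dusp1, a phosphatase of MAP kinases, read 442, 488, 316 and 659, so mouse 4 was lowest for Egr1 and highest for Dusp1. Cebpb, a transcription factor of the acute phase and of gluconeogenesis, read 1251, 1085, 773 and 1678. The transferrin receptor Tfrc, which imports iron, read 99.9, 112, 176 and 63.5.

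Among drug-metabolising enzymes, 16 of 31 detected cytochromes P450 and 9 of 23 conjugating enzymes differed between mice in the limma F test, against 28.4% of all detected genes. Cyp2b10, a target of the nuclear receptor CAR, read 444, 611, 430 and 813. The glutathione transferase Gstt2 read 584, 319, 274 and 474. Apoa4, an apolipoprotein, read 164, 427, 244 and 229 and was the most variable of 13 apolipoproteins, while the brightest, Apoc3, Apoa2, Apoa1 and Apoc1, did not pass. Xlr4a, an X-linked gene of lymphoid-regulated type, read 78.2, 353, 115 and 236.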
